A study of Rattus norvegicus with 6 samples.

Results

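The genes described here belong to the endoplasmic reticulum (ER) stress and protein folding machinery. The set is a fixed list of 33 symbols, and all 33 were found among the 17321 genes counted in islets of fetal rats. The list was split by role into 15 chaperones and folding enzymes, 4 genes of ER-associated degradation, 4 genes for the stress sensors and Xbp1, and 10 genes of the Atf4 arm. The tissue came from Sprague Dawley fetuses at gestational day 22, and the labels name no altered allele in either group. In the high glucose group, glucose was infused into the left uterine horn at 4 mg/min for 48 h, starting on gestational day 20. Fetuses in the right horn of the same dam formed the control group and are described as normoglycemic in the series text. Each library held islets of 2 pooled fetal pancreata, which were hand picked after collagenase digestion. Both groups then spent 24 h in RPMI with 5 mM glucose before RNA was isolated, so each level is one found after culture at the same glucose concentration.

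Each treatment label had 3 libraries, 1 from each of 3 dams, and total counts per library ran from 18077841 to 30993532. File names and sample titles give opposite horn letters in 6 of 6 libraries. Directions follow the treatment labels and would turn under the other naming. Horn side and glucose cannot be told apart in this design. Islet hormone genes were present: Ins1 lay between 2862 and 11631 CPM (counts scaled to a common library total) and Gcg between 1040.5 and 4381 CPM in the 6 libraries. Other tissue was present too, since the acinar gene Cpa1 ranged from 3.75 to 237.6 CPM and the connective tissue gene Col3a1 from 6948 to 18927 CPM. Col3a1 was above Ins1 in each of the 6 libraries, so levels given here are those of islets with much connective tissue. In such mixed tissue, fewer cells of a type and less RNA per cell cannot be told apart.

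Beta cells fold and secrete large amounts of proinsulin, and their ER carries a correspondingly heavy load. When unfolded proteins build up there, a trio of membrane sensors respond. IRE1 (Ern1) splices the Xbp1 mRNA, ATF6 is cut to release a transcription factor, and PERK (Eif2ak3) phosphorylates eIF2, which slows translation in general while favouring that of Atf4. ATF6 and XBP1 raise chaperones and degradation genes, and ATF4 raises amino acid, redox and cell death genes, of which Ddit3 (CHOP) is the best known in beta cells. The Atf4 arm also answers to amino acid shortage and to viral double-stranded RNA through other eIF2 kinases.

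The promoters of some members carry sequences through which these factors are known to act. Those found are shown, word by word. RefSeq promoters of the GRCr8 build (250 bases before to 50 after a gene start) were at hand for 27 of the 33 members and for 27457 genes in all. They were searched on both strands for 4 words. The ER stress element (ERSE, CCAAT and CCACG with 9 bases of any kind between them) is the joint site of NF-Y and ATF6, and ERSE-II (ATTGG and CCACG with 1 base between them) is a shorter form of it. The unfolded protein response element (UPRE, TGACGTGG) is bound by XBP1, and the C/EBP-ATF response element (CARE, TGATGNAA) by ATF4 with a partner. The word for ERSE occurred in 6 of the 27 members, 22.2%, against 0.0765% of all genes with a promoter (21 genes). ERSE-II occurred in 3 members (11.1%) against 0.0619% of all genes. CARE also occurred in 3 members (11.1%) against 4.16% of all genes, and UPRE in 1 (3.7%) against 0.681%. The members were listed for their place in this response, so these shares describe the list and are no test. A match is a description of letters, and no match says only that these letters are not in this window.

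The ERSE words are given in capitals within the strand that the gene is read from. The windows lie at chr3:38452958-38453006 for Hspa5, chr7:23012436-23012484 and chr7:23012332-23012380 for Hsp90b1, chr14:84604543-84604591 for Xbp1, chr15:102432519-102432567 for Dnajc3, chr7:121789224-121789272 for Creld2 and chr19:40213120-40213168 for Calr. Hsp90b1 is on the minus strand and the others on the plus strand. The word in Creld2, Calr and the second window of Hsp90b1 runs in the reverse complement.
Hspa5: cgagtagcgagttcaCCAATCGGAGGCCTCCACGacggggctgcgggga
Hsp90b1, first: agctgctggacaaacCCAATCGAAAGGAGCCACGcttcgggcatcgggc
Hsp90b1, second: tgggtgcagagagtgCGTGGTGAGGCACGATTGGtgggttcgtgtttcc
Xbp1: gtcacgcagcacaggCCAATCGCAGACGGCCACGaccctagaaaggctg
Dnajc3: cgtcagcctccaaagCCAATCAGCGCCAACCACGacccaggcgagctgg
Creld2: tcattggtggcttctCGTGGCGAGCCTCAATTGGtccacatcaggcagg
Calr: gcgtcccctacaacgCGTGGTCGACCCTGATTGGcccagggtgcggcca

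ERSE-II was held by Hyou1, Dnajb11 and Herpud1, and CARE by Herpud1, Trib3 and Chac1, so Herpud1 held both. The ERSE and ERSE-II words thus lay in chaperones, Herpud1 and Xbp1, and not in the Atf4 arm. The CARE words lay in Herpud1 and in Trib3 and Chac1 of the Atf4 arm, and not in chaperones. The single UPRE was in Hyou1 and overlapped the first of its ERSE-II words. All windows with an ERSE-II or a CARE word are shown, so that the genes with each word can be compared, and the word is in capitals. They lie at chr8:53602679-53602719 and chr8:53602779-53602819 (Hyou1, plus strand), chr11:91672800-91672825 (Dnajb11, minus strand), chr19:10614806-10614846 and chr19:10614869-10614906 (Herpud1, minus strand), chr3:161275534-161275569 (Trib3, minus strand) and chr3:126795949-126795986 (Chac1, plus strand).
Hyou1, first ERSE-II: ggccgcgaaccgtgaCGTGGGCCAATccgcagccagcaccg
Hyou1, second ERSE-II: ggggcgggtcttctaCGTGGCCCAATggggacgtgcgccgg
Dnajb11, ERSE-II: atgtcccaggcggcgATTGGCCCACG
Herpud1, ERSE-II: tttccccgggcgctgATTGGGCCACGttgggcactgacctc
Herpud1, CARE: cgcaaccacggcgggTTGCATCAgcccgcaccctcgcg
Trib3, CARE: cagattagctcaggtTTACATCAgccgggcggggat
Chac1, CARE: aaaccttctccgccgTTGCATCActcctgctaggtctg

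All members were expressed well above the filter on low counts, and all 33 were tested. The lowest count of any member in any library was 89. Levels of different genes were compared per length, as CPM per kilobase of exon. Calr, the calcium-binding lectin chaperone, was the most abundant at 1558 CPM per kilobase (geometric mean of 6 libraries). The disulfide isomerases Pdia3 (861) and P4hb (789), and the chaperones Hsp90b1 (GRP94, 716) and Hspa5 (BiP, 710.3), came next on that scale. These 5 stood at percentiles of 99.0 to 99.6 among the genes tested, and every library of Calr lay above every library of the others. The sensors were at the other end, with Atf6 at 13.1, Eif2ak3 at 8.84 and Ern1 at 3.86 CPM per kilobase, and Trib3 of the Atf4 arm (12.8) lay between Atf6 and Eif2ak3. RefSeq names pseudogenes of Hsp90b1 and Pdia4 and a like gene of Pdia6, and whether reads were split between these was not tested. Chaperones and folding enzymes took 9 of the 10 highest places, and Atf4 at 359.7 CPM per kilobase was the exception. The ranges of the top group overlapped from Pdia3 to Hspa5, so their order among themselves is within the spread of the libraries.

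**Figure D1:**
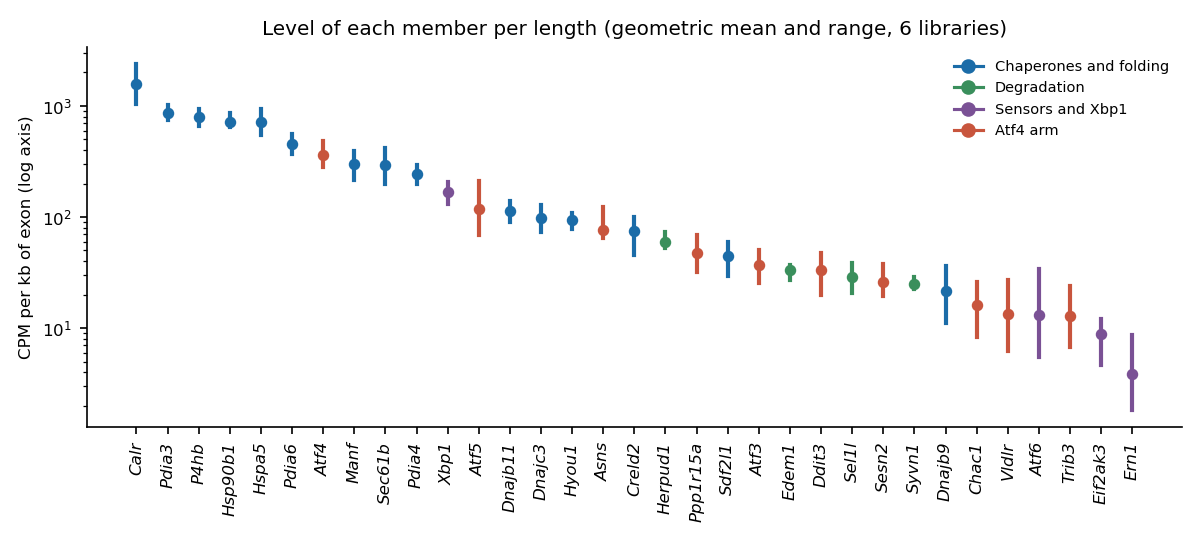
Level of each of the 33 members in CPM per kilobase of exon (log axis), ordered from high to low. Points are geometric means of 6 libraries, lines run from the lowest to the highest library, and colours mark roles. The chaperones fill most of the left side, from Calr at 1558, and the sensors Eif2ak3 and Ern1 lie at the right end.

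The comparison asked whether high glucose before birth left a mark on these genes. None of the 33 members passed the test, in either direction (edgeR quasi-likelihood test with dam pair as a block, Benjamini-Hochberg adjusted p below 0.05 over 12276 genes). The background was low: 0.0163% of genes were called lower in high glucose and 0% higher. At an unadjusted p below 0.05, 1 member was lower (Trib3), while 3.15% of all genes were lower and 1.67% higher at that level. The adjusted p was 0.476 for Trib3 and 1 for each of the other 32. The 95% interval of the fitted difference lay within a 2-fold change either way for 31 of 33 members, against 71.3% of all genes tested. The exceptions were Trib3 and Ddit3. The standard error of a member ran from 0.172 to 0.292 on the log2 scale. A p above the threshold does not show that the groups were alike, and these intervals give the range of differences the libraries allow.

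Within pairs, 6 members were lower in high glucose in all 3 pairs (18.2%), against 11.3% of all genes. These were Trib3, Atf5, Sesn2, Herpud1, Xbp1 and, with a difference of 0.00 in pair 1, Dnajc3. Only Eif2ak3 was higher in all 3 pairs (3.03%), against 11.7% of all genes. Scaling by total counts alone made 8 members lower in all 3 pairs, with Asns and Chac1 added, and put Hsp90b1 in the place of Eif2ak3. Under RLE scaling Dnajc3 left the set. Herpud1 was the single member whose high glucose libraries all lay below all control libraries, where 2.1% of all genes did so and 1.21% did the opposite. The other 26 members changed sign between pairs.

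**Figure D2:**
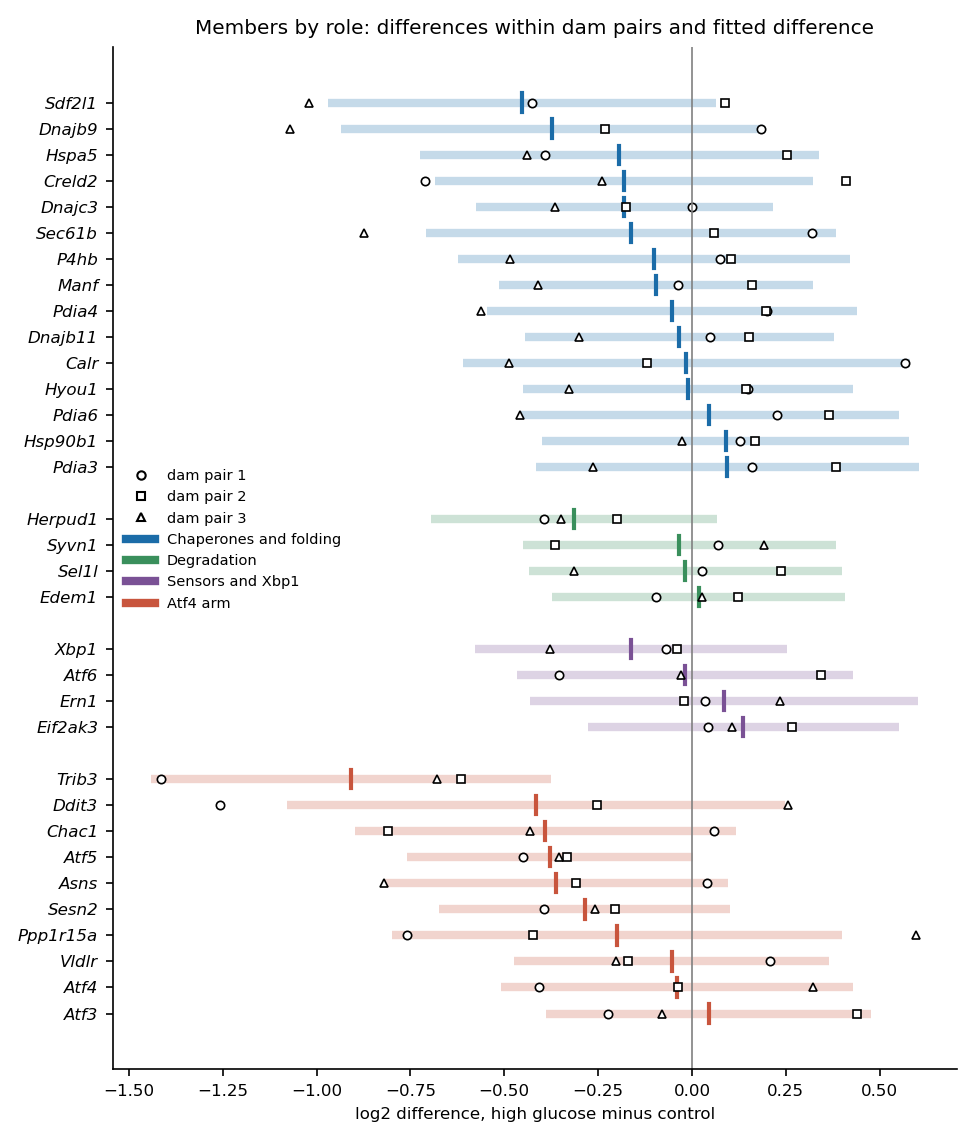
Log2 difference in CPM between high glucose and control within each dam pair (open symbols) and from the fit (vertical tick, with a shaded 95% interval), for the 33 members by role. Trib3 lies below 0 in all 3 pairs, at -1.41, -0.61 and -0.68, and the chaperones show the triangle of pair 3 to the left of 0.

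Chaperones come first by role. Hspa5, the ER form of HSP70 and the standard readout of ER stress (rn6 chromosome 3, 13838304 to 13842763), measured 1899, 2026 and 1915 CPM in the control libraries of pairs 1 to 3. Its high glucose libraries held 1447, 2415 and 1413 CPM. The control libraries lay close together, while the high glucose libraries fell on both sides of them, lower in pairs 1 and 3 and higher in pair 2. The means were 1947 ± 68.8 and 1759 ± 569 CPM (SD, n = 3), with a fitted log2 difference of -0.19 (95% interval -0.72 to 0.34). Hsp90b1, the ER form of HSP90, was steadier at 1808, 2174 and 1875 CPM in control and 1975, 2441 and 1841 CPM in high glucose, and its groups overlapped (fitted log2 difference 0.09).

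Sdf2l1, a small ER protein that works with BiP and its cochaperones, had the smallest unadjusted p among the chaperones (0.0789). It measured 46.4, 57.0 and 63.4 CPM in control and 34.5, 60.6 and 31.2 CPM in high glucose. Pair 2 ran against the other pairs, and its log2 difference was -0.43, 0.09 and -1.02 in pairs 1 to 3. Without pair 3 its fitted difference went from -0.45 to -0.17. Dnajb9 (ERdj4), a cochaperone of BiP, held 60.4, 25.05 and 69.4 CPM in control against 68.7, 21.3 and 32.98 CPM, so the largest gap was that of pair 3 (-1.07 on the log2 scale), and without that pair its fitted difference was -0.02. Both groups of Dnajb9 were spread by pair 2, which was low on both sides.

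Creld2 and Manf, secreted or ER-resident stress proteins, also lacked a common direction. Creld2 measured 101, 101 and 117 CPM in control and 61.6, 135 and 98.9 CPM in high glucose, with the log2 difference at -0.71 in pair 1 and 0.41 in pair 2. Manf measured 122, 184 and 214 CPM against 119.1, 205 and 161 CPM. Pdia4, a disulfide isomerase, measured 479, 599.8 and 674 CPM against 550.0, 687 and 457 CPM, higher in pairs 1 and 2 and lower in pair 3. The same form, up in pairs 1 and 2 and down in pair 3, was seen for Hsp90b1, Hyou1, Dnajb11, Pdia3, Pdia6, P4hb and Sec61b. Hyou1 and Dnajb11 are a nucleotide exchange factor and a cochaperone of BiP, and Sec61b is a subunit of the channel through which new proteins enter the ER.

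Calr had the widest swing among the abundant chaperones without a net difference. It measured 2081, 4418 and 2706 CPM in control and 3084, 4064 and 1930.0 CPM in high glucose, a log2 difference of 0.57, -0.12 and -0.49 in pairs 1 to 3. Its fitted difference was -0.01. Dnajc3 (p58IPK), which binds BiP and restrains PERK, measured 144, 196 and 142 CPM against 143, 173 and 110.3 CPM, with a fitted log2 difference of -0.18. Over the 15 chaperones and folding enzymes the fitted differences ran from -0.45 (Sdf2l1) to 0.09 (Pdia3).

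Among the 4 degradation genes, Herpud1 had the largest fitted difference. This membrane protein of the retrotranslocation complex is induced by both the ATF6 and the ATF4 branch. It measured 135, 110.3 and 124.9 CPM in control and 103, 96.0 and 98.1 CPM in high glucose. The groups did not overlap, as was so in the same direction for 2.1% of all genes tested. The means were 123.5 ± 12.6 and 99.0 ± 3.55 CPM (SD, n = 3), a fitted log2 difference of -0.31 with an SE of 0.172, which did not pass (edgeR adjusted p = 1, unadjusted p = 0.0968). Syvn1 (HRD1), the ubiquitin ligase of the complex, measured 70.3, 85.6 and 69.7 CPM against 73.7, 66.5 and 79.6 CPM, with its pairs on both sides of 0. Sel1l, the adaptor of Syvn1, and Edem1, a lectin that picks misfolded glycoproteins, had fitted differences of -0.02 and 0.02.

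The sensors had small fitted differences between horns. Eif2ak3 (PERK) measured 51.4, 20.7 and 50.9 CPM in control and 53.0, 24.95 and 54.8 CPM in high glucose. It was slightly higher in each pair (0.04, 0.27 and 0.11 on the log2 scale), and the libraries of pair 2 were low on both sides. Xbp1, the factor made active by splicing, measured 251, 378 and 377 CPM against 239, 368 and 289.8 CPM. The fitted log2 difference was -0.16, and pair 3 had the widest gap (-0.38). Counts per gene do not separate spliced from unspliced Xbp1, and cleavage of ATF6 or phosphorylation of PERK leave no trace in them. The fitted differences of Ern1 and Atf6 were 0.09 and -0.02.

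The Atf4 arm held Trib3, the member with the largest fitted difference. Trib3, a pseudokinase raised by ATF4 and CHOP that dampens insulin signalling and the ATF4 response itself (rn6 chromosome 3, 147814066 to 147819650), measured 30.6, 14.8 and 34.2 CPM in control. In high glucose it measured 11.4, 9.67 and 21.4 CPM, lower in each of the 3 pairs, although the groups overlapped because pair 2 was low throughout. The means were 26.6 ± 10.3 and 14.2 ± 6.30 CPM (SD, n = 3). The fitted log2 difference was -0.91 (SE 0.240, 95% interval -1.44 to -0.38, edgeR unadjusted p = 0.00337), and the adjusted p of 0.476 did not pass. Across the 10 alternative analyses its fitted difference stayed between -1.05 and -0.65, and the adjusted p between 0.105 (DESeq2) and 1 (no replicate block).

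Atf5, a transcription factor of the same branch that is translated when eIF2 is phosphorylated, measured 95.5, 124.01 and 217 CPM in control and 70.0, 98.4 and 170.0 CPM in high glucose. Its pairs differed by nearly the same amount (-0.45, -0.33 and -0.35 on the log2 scale). The fitted difference was -0.38, with an unadjusted p of 0.0510 and an edgeR adjusted p of 1. Sesn2, a leucine sensor and stress protein, had pair differences of -0.39, -0.20 and -0.26.

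Ddit3 and its companions followed another order. Ddit3, the proapoptotic factor CHOP, measured 40.7, 32.7 and 26.7 CPM in control and 17.0, 27.4 and 31.9 CPM in high glucose. It was lower in pairs 1 and 2 and higher in pair 3 (-1.26, -0.25 and 0.25 on the log2 scale). Its fitted difference of -0.42 became 0.00 without pair 1 and -0.76 without pair 3. Atf4 measured 528, 468 and 550.2 CPM in control and 398, 456 and 688 CPM in high glucose, with differences of -0.41, -0.04 and 0.32. Ppp1r15a (GADD34), the regulatory subunit of the phosphatase that reverses eIF2 phosphorylation, measured 141, 124.07 and 64.3 CPM against 83.1, 92.4 and 97.2 CPM, with -0.76, -0.42 and 0.60. All of these were lowest relative to control in pair 1 and above control in pair 3.

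Asns, asparagine synthetase, and Chac1, which degrades glutathione, had their gaps outside pair 1. Asns measured 137, 161 and 246 CPM in control and 141, 130.2 and 139 CPM in high glucose. Its wider gap was in pair 3 (-0.82 on the log2 scale), and pair 2 was at -0.31. Chac1 measured 27.0, 23.0 and 40.5 CPM against 28.1, 13.1 and 30.0 CPM, with its wider gap in pair 2 (-0.81) and -0.43 in pair 3. Neither differed in pair 1 by more than 0.06. Atf3, an early stress factor, measured 87.8, 70.9 and 50.6 CPM against 75.3, 96.1 and 47.9 CPM, and Vldlr, a lipoprotein receptor, had pair differences of 0.21, -0.17 and -0.20. The Atf4 arm thus shared no single order over the pairs.

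**Figure D3:**
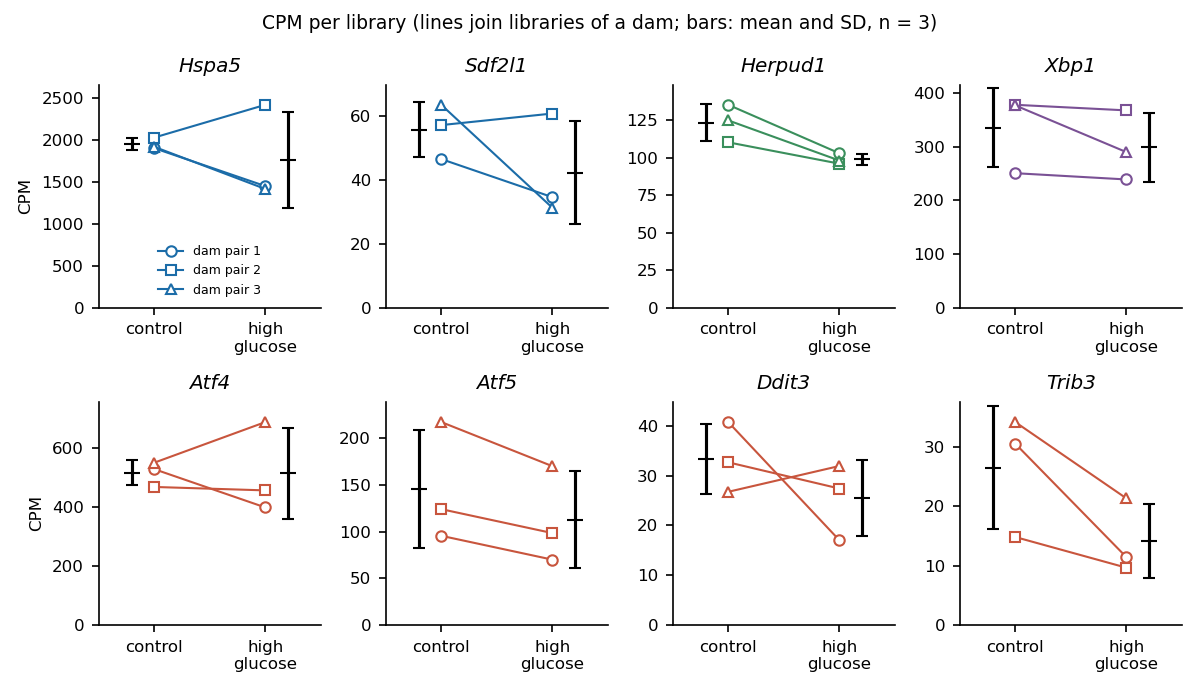
CPM of 8 members in each library, from 0 upwards. Lines join the control and high glucose library of a dam, and bars give the mean and SD of 3 libraries. The lines of Herpud1, Xbp1, Atf5 and Trib3 slope down in every pair, and those of Hspa5, Sdf2l1, Atf4 and Ddit3 cross or diverge.

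By role, the medians moved differently from pair to pair. The median fitted log2 difference was -0.10 for chaperones and folding enzymes, -0.03 for degradation, 0.03 for sensors and Xbp1, and -0.32 for the Atf4 arm, beside 0.00 for all genes tested. The Atf4 arm had medians of -0.40, -0.28 and -0.23 in pairs 1 to 3, with 7, 9 and 7 of its 10 genes lower. Chaperones had medians of 0.13, 0.15 and -0.44. In pair 3 they were lower in 15 of 15 genes, and in pairs 1 and 2 higher in 10 and 12 of 15. Without pair 3 the fitted chaperone median was 0.10, above 0, and without pair 1 that of the Atf4 arm was -0.21. The median over all genes was 0.00, 0.02 and -0.02 in the pairs. Scaling by total counts alone shifted it to -0.08, 0.04 and 0.11. On that scaling the chaperones in pair 3 had a median of -0.31 with 14 of 15 lower, Hsp90b1 being higher. The Atf4 arm then had medians of -0.48, -0.26 and -0.10.

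Markers of cell types moved with the pairs as well. The summed level of 9 beta cell markers was 11212, 13522 and 22856 CPM in control and 18681, 10799 and 4939 CPM in high glucose, a ratio of 1.67, 0.799 and 0.216 in pairs 1 to 3. The 6 alpha cell markers had ratios of 1.31, 1.66 and 0.245. In pair 3, where 15 of 15 chaperones were lower, the beta and alpha cell lists were at their lowest against control. The 3 delta and PP cell markers had ratios of 1.22, 0.512 and 0.559, lowest in pair 2. In pair 3 the 18 acinar markers were 15.6 times higher in high glucose (51.6 and 805 CPM), and in pairs 1 and 2 their ratios were 0.711 and 1.53. The 7 mesenchyme markers had ratios of 1.37, 0.873 and 0.851, the 5 duct markers 2.13, 1.39 and 1.49, and the 5 endothelial markers 1.02, 0.374 and 0.779. The part of this in the chaperone levels was not tested.

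Some marker lists were lower in each pair, as the median of the Atf4 arm was. The 10 interferon response markers, each lower in all 3 pairs, had ratios of 0.316, 0.222 and 0.643, ranging from 204 to 1274 CPM in control and 131 to 352 CPM in high glucose. The 5 erythroid markers had ratios of 0.0933, 0.424 and 0.218 (391 to 1554 CPM in control, 85.2 to 603 CPM in high glucose), and 5 of 5 were lower in all 3 pairs. The 7 macrophage and leukocyte markers had ratios of 0.714, 0.772 and 0.425 (663 to 863 CPM in control, 314 to 616 CPM in high glucose). The 4 B and plasma cell markers summed to 12.1, 1.79 and 0.921 CPM in control and 0.189, 0.684 and 0.685 CPM in high glucose. These sums are very low, and the wide gap was that of pair 1 alone. No marker in these lists was at 0 in all 6 libraries. Their part in the median of the Atf4 arm was not tested.

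**Figure D4:**
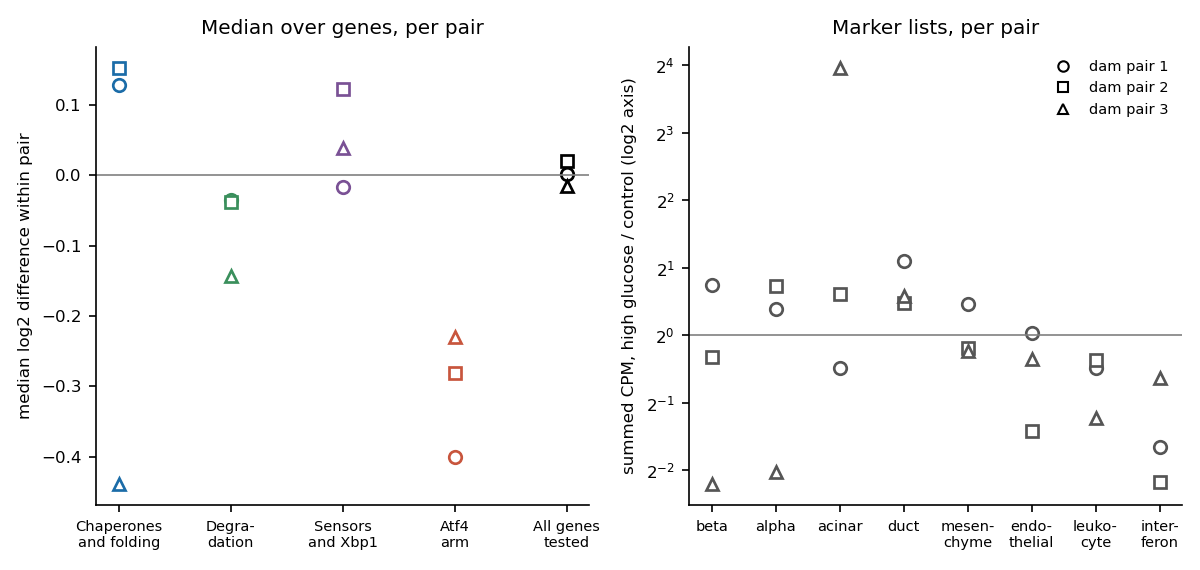
Left, median log2 difference within each dam pair over the genes of each role and over all 12276 genes tested. Right, ratio of summed CPM of marker lists, high glucose over control, per pair on a log2 axis. Pair 3 (triangles) has the lowest chaperone median, -0.44, and the lowest beta cell ratio, 0.216, and the Atf4 arm is below 0 in each pair.

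Genes of the same pathway outside the list gave no call either. Of 145 further genes in 7 lists, 137 were tested and 0 passed in either direction with edgeR or in any alternative, DESeq2 and limma voom included. At an unadjusted p below 0.05 the count was 0 as well, against 3.15% lower and 1.67% higher over all genes. Of the 137, 14 were lower and 6 higher in all 3 pairs, beside 11.3% and 11.7% of all genes. The median fitted log2 difference was -0.05, and 105 of 137 were lower in pair 3, beside 6294 of 12276 genes.

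The other targets of Atf4 gave the lowest median of these lists, -0.17 over 23 genes, with 18 below 0. Their medians were -0.16, 0.07 and -0.45 in pairs 1 to 3, so pair 2 ran against the others. The lowest p there was that of Gdf15, a stress cytokine, which measured 28.9, 13.7 and 14.0 CPM in control and 13.1, 13.6 and 10.2 CPM in high glucose (log2 difference -0.54, unadjusted p = 0.0693, edgeR adjusted p = 1). The 13 aminoacyl tRNA synthetases, also Atf4 targets, had a median of -0.08. Their gene of smallest p, Sars, had a log2 difference of -0.19. The 14 genes for eIF2, its exchange factor, kinases and phosphatases had a median of -0.05, and Eif2b2, a subunit of the exchange factor, was at -0.27.

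Genes for entry into the ER had the same signs over the pairs as the chaperones. The 28 genes (translocon, signal peptidase, signal recognition and glycosylation) had medians of 0.22, 0.08 and -0.44, with 26 of 28 lower in pair 3. Sec61g, a small subunit of the channel, had a log2 difference of -0.39. The 20 lectin chaperones and oxidation genes had medians of 0.25, 0.03 and -0.35, and Pdia5 was at 0.34. Of the degradation genes outside the list, 21 were tested, with a median of -0.08. Edem3, a relative of Edem1, was higher at 0.42 (unadjusted p = 0.0790, edgeR adjusted p = 1).

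The 18 genes of sensor cleavage, the Atf6 family and cell death had a median of 0.01, with Mbtps2, the protease that cuts ATF6 in the membrane, at 0.40. Cytosolic heat shock genes served as a contrast outside the ER. Their 14 tested members had a median of 0.01 and medians of -0.08, 0.14 and -0.16 in the pairs, and Hspb1, a small heat shock protein, was at -0.53 (unadjusted p = 0.0565, edgeR adjusted p = 1).

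Several members differed between dams. This comparison was added after the values had been seen. In the same edgeR fit, 7 of 33 members differed between the 3 dams at an adjusted p below 0.05, a share of 21.2%, beside 22.8% of all genes. That share is near the background. The members were Atf6, Ern1, Vldlr, Eif2ak3, Atf5, Dnajb9 and Trib3, and they include all of the sensors.

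Atf6 measured 109 and 85.0 CPM in dam 1 (control, then high glucose), 17.6 and 22.3 CPM in dam 2, and 40.0 and 39.3 CPM in dam 3. The highest dam mean was 4.85 times the lowest (edgeR adjusted p = 0.00223), while the horns of a dam lay close together. Ern1 had the same order, with 25.2 and 25.7, 5.50 and 5.42, and 9.86 and 11.6 CPM, a ratio of 4.66 between dams. Vldlr was highest in dam 3 (92.9 and 80.7 CPM) and lowest in dam 2 (23.8 and 21.1 CPM), a ratio of 3.86. Dam 2 was the lowest of the dams for 6 of these 7 genes, and Atf5 was lowest in dam 1. Dam 2 was not low throughout the list. Its mean was the highest for Calr (4241 CPM, against 2583 and 2318 CPM in dams 1 and 3), among others. The same held for Hspa5 (2220 CPM, against 1673 and 1664 CPM), while Hyou1 was highest in dam 1.

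Other members had smaller ratios. Between dams the highest mean was 1.33 times the lowest for Hspa5, 1.24 times for Hsp90b1, 1.14 times for Pdia3 and 1.04 times for Ddit3 of the Atf4 arm. Without dam 2, 2 of 33 members differed between the remaining dams. The share of all genes in that fit was not set beside this count, so the fall is not a result about the members. Dam 2 gave the libraries with the fewest counts. Dam cannot be told apart from whatever else was shared by the libraries of one dam, such as the day of preparation.

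**Figure D5:**
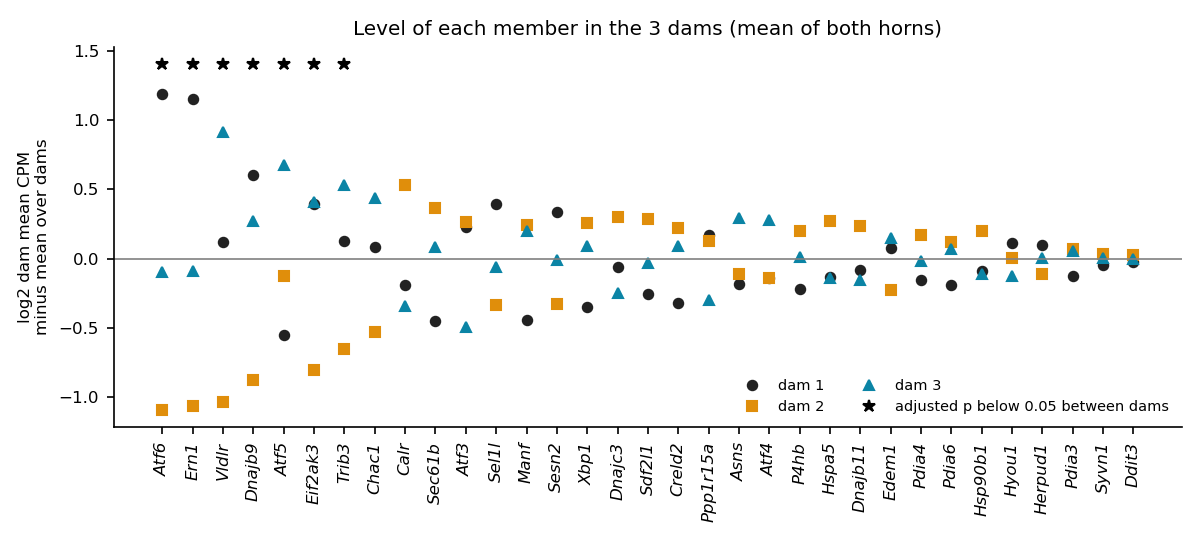
Level of each member in each dam, as log2 of the dam's mean CPM over both horns minus the mean of the 3 dams, ordered by the ratio between the highest and the lowest dam. Stars mark the 7 members that differed between dams. Atf6 and Ern1 span ratios of 4.85 and 4.66 at the left, and Ddit3 lies near 0 in all dams at the right.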

How the data were processed

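Islet RNA of 6 libraries was sequenced after stranded poly(A) library preparation, per the labels' protocols. The authors deposited counts without normalization, one value per gene. Read pairs had been assigned by featureCounts 1.5.1 with strand setting 2 and a mapping quality of at least 10 on UCSC rn6 refGene, per the file headers. Alignment used STAR 2.5, per the submitters' processing notes. Groups follow the treatment labels, and pairs follow the shared stem of the sample titles and the series design. Libraries of one dam deviated together (correlation across genes 0.474, 0.621 and 0.413).

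The test was the robust quasi-likelihood F test of edgeR 4.0.16 under R 4.3.3, with dam pair as a block after TMM scaling and filterByExpr by group. The filter kept 12276 genes. Standard errors and 95% intervals come from that fit. CPM use TMM-scaled totals, and within-pair differences use log2 CPM with a prior count of 2. Differences are high glucose minus control. The procedure was also run on counts simulated from its own fitted model, which does not check that model. Each member had 89 counts or more in every library. Alternatives were RLE factors, total counts, other filters and prior counts, DESeq2 1.42.0, limma voom (limma 3.58.1), no block, and leaving out each pair.

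The members, the lists and the tests were chosen with earlier results of these data known. All 33 members are named. Values in every library are given for 17 members set by name and for the 2 with the smallest p in each role. Of each further list the gene with the smallest p is named. Atf6, Ern1, Vldlr, Calr and Dnajc3 were chosen for such values after these had been seen. Promoters come from a RefSeq table of GRCr8, matched by symbol, and gene coordinates are those of rn6 in the files.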

Additional observations from a re-analysis of the deposited data

How the results depend on the processing

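The number of members called was 0 in the edgeR analysis and in all 10 alternatives, and so was the number of other pathway genes called. Over all genes the edgeR count of 2 became 18 with no filter on low counts, 5 with a mean count of at least 50, 106 with DESeq2 and 4 with limma voom, and 18 to 55 when a pair was left out. The fit with no replicate block called 0 of 12276 genes (192 at an unadjusted p below 0.05), 0 members had an unadjusted p below 0.05, and its median for sensors and Xbp1 was -0.044 in place of 0.034. Members with an unadjusted p below 0.05 numbered 2 with a mean count of at least 50 (Atf5 was added) and 2 to 4 when a pair was left out, against 1. Members differing between dams numbered 11 with DESeq2 and 2 to 10 when a pair was left out, against 7. For neither of these counts were the shares of all genes in the same fits set beside them. Their changes are therefore not results about the members. Leaving out a pair put the median fitted log2 difference between -0.18 and 0.10 for chaperones, -0.089 and -0.065 for degradation, -0.058 and 0.13 for sensors and Xbp1, and -0.33 and -0.21 for the Atf4 arm. By total counts only, Hyou1 (0.0090), Calr (0.0059), Sel1l (0.0026) and Atf6 (0.0028) turned from just below 0 to just above it, as Hyou1 did with no replicate block (0.0021). Leaving out a pair turned the sign of 18 members, whose fitted differences then ranged as follows: Hyou1 (-0.095 to 0.15), Dnajb11 (-0.13 to 0.10), Calr (-0.31 to 0.23), Pdia3 (-0.052 to 0.27), Pdia4 (-0.19 to 0.20), Pdia6 (-0.12 to 0.30), P4hb (-0.20 to 0.091), Creld2 (-0.48 to 0.081), Manf (-0.22 to 0.063), Sec61b (-0.41 to 0.19), Edem1 (-0.034 to 0.072), Sel1l (-0.14 to 0.13), Syvn1 (-0.15 to 0.13), Atf6 (-0.19 to 0.15), Atf4 (-0.22 to 0.14), Atf3 (-0.15 to 0.18), Vldlr (-0.19 to 0.024) and Ppp1r15a (-0.59 to 0.083). The other 15 members kept their sign in every alternative, with these ranges when a pair was left out: Hspa5 (-0.41 to -0.067), Hsp90b1 (0.051 to 0.15), Dnajb9 (-0.66 to -0.017), Dnajc3 (-0.27 to -0.086), Sdf2l1 (-0.72 to -0.17), Herpud1 (-0.37 to -0.28), Ern1 (0.0098 to 0.13), Eif2ak3 (0.074 to 0.18), Xbp1 (-0.22 to -0.052), Atf5 (-0.40 to -0.35), Ddit3 (-0.76 to -0.00037), Trib3 (-1.05 to -0.65), Chac1 (-0.62 to -0.19), Asns (-0.57 to -0.13) and Sesn2 (-0.33 to -0.23). The cause of these changes was not tested.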
